A study of Mus musculus with 8 samples.

Results

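The 54 genes described here are cell cycle and mitosis genes, chosen by symbol from textbook roles in the cycle. Earlier results of these data were known when they were chosen. All 54 were among the 24052 genes listed for the series. They comprised 2 markers of cycling cells (*Mki67*, *Top2a*), 14 cyclins, cyclin-dependent kinases (CDKs) and CDK phosphatases, 3 CDK inhibitors, 13 genes of replication and nucleotide synthesis, 4 transcription factors, 8 genes of the mitotic kinases, the spindle checkpoint and its target, the anaphase-promoting complex, and 10 genes of the kinetochore, spindle and cytokinesis. Levels high enough to be tested were found for 52 of them, among 11672 genes tested in all, while *Cdkn2a* and *Cdkn2b* had no counts.

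The series holds RNA-Seq libraries of the mTEC 3.10 line, medullary thymic epithelial cells of C57BL/6 mice, and of E6, 1 clone derived from it with Crispr-Cas9 and mutated in *Aire*, the autoimmune regulator. The labels give the clone as Aire +/-, while the study's sequencing found both alleles altered. Both were sampled at passage 2 with and without thymocyte adhesion, so that 2 libraries stood for each of 4 conditions. After adhesion means 12 h of co-culture with C57BL/6 thymocytes at 50 per mTEC. The labels give 24 h of mTEC culture for replicate 2 of WT after adhesion, replicate 1 of E6 before adhesion and replicate 1 of E6 after adhesion, and 12 h for the other libraries. Because E6 is a single clone, effects of *Aire* and other differences between a clone and its parent line cannot be told apart.

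A dividing cell passes from G1, where D-type cyclins with CDK4 or CDK6 and then E-type cyclins with CDK2 release E2F factors from the retinoblastoma family, into S phase, where origins licensed by the MCM helicase fire, and on to mitosis under cyclin A, cyclin B and CDK1. Transcription follows the same order, since E2F drives genes of G1/S and the MYBL2 and FOXM1 factors, acting through CHR elements, drive genes of G2/M. In the thymus, immature medullary epithelial cells divide, while cells that express AIRE are described as post-mitotic. An mTEC line is kept in continuous division.

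Counts on genes ranged from 13506610 to 20145154 per library. Replicate 1 of WT after adhesion stood apart, with 66.71% of its alignments on genes. Its level against the mean of all 8 libraries, itself included, fell with the GC content of the transcript. The slope was -0.46 on the log2 scale per 10 percentage points, against -0.023 to 0.13 in the other 7. Over the 52 members, the median absolute log2 difference between replicates was 0.42 in WT after adhesion, against 0.046 in WT before, 0.072 in E6 before and 0.051 in E6 after adhesion. The log2 FC of E6 over WT of each member, averaged over before and after adhesion, is therefore given with and without that library. *Aire* itself had 3 counts in replicate 2 of WT after adhesion, 3 in replicate 2 of E6 after adhesion and 0 in the other 6 libraries, so its level does not check the labels. The epithelial gene *Krt8* was at 1377 to 2040 CPM (counts scaled to a common library size by TMM). Of other epithelial markers looked up, *Epcam* had 7366 to 11327 counts per library, *Krt18* 9363 to 26150, *Krt14* 3767 to 11085 and *Cdh1* 11775 to 17333. Lower were *Foxn1* with 161 to 277, *Trp63* with 54 to 87, *Krt5* with 3 to 21, *Cd80* with 0 to 4 and *Enpep* with 0. The 16 thymocyte markers present in the files summed to 0.268 to 0.971 CPM before adhesion, 13.4 and 17.1 CPM in WT after adhesion and 94.8 and 116 CPM in E6 after adhesion, with 10 to 14 of the 16 at 0 before and 0 to 3 at 0 after adhesion. *Thy1* had 33 and 17 counts in WT and 222 and 165 counts in E6 after adhesion. *Ptcra* had 0 to 3 counts per library, with its highest count in replicate 1 of E6 before adhesion. The 54 members summed to 12037 to 14828 CPM in each library.

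**Figure D1:**
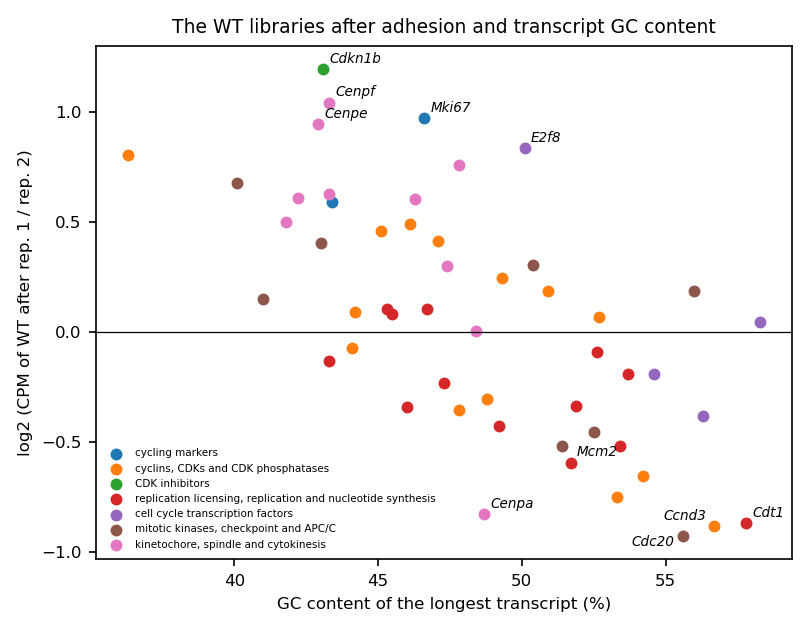
Log2 ratio of CPM in replicate 1 over replicate 2 of WT after adhesion (vertical axis) against the GC content of each member's longest transcript in percent (horizontal axis), 1 point per tested member, coloured by role. The ratios ran from -0.93 to 1.2 and fell with GC content (Pearson r = -0.665 over 52 members, which share the 2 libraries).

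To describe what the members' promoters hold, windows of 250 bases before to 50 bases after the start of transcription were taken from RefSeq (GRCm38.p6). They were given for 44 of the 54 members, and the first listed window of each gene was counted. The letters searched on both strands were TTTGAA and TTTAAA for the cell cycle homology region (CHR), CCAAT for NF-Y, and TTTGGCGC, TTTCCCGC and TTTCGCGC for E2F. In the 15 windows of the mitotic kinase and kinetochore groups, 12 held CHR letters, 12 held CCAAT and 0 held E2F letters. In the 12 windows of the replication group, 3 held CHR letters, 9 held CCAAT and 6 held E2F letters. Among the first windows of all 27025 genes the shares were 27.8% for CHR, 37.9% for CCAAT and 1.91% for E2F letters. CHR and CCAAT letters stood together in 11 of the 15 mitotic windows and in 10.9% of the first windows of all genes. Such matches describe the letters only. Not every member lower in all 4 E6 libraries held them, as *Nusap1* had no match to any of the letters and *Bub1* held CCAAT but no CHR letters. Whether the letters go with the levels in E6 was not tested. The sequences are of the promoters of *Ccnb2* and *Cenpe*, mitotic genes that were lower in all 4 E6 libraries, of *Cdc20*, a mitotic gene whose E6 values overlapped 1 WT library, of the replication gene *Mcm7* and of cyclin E1, which was higher in E6, with the matches in capitals.

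Ccnb2 (chr9:70421505-70421804, minus strand): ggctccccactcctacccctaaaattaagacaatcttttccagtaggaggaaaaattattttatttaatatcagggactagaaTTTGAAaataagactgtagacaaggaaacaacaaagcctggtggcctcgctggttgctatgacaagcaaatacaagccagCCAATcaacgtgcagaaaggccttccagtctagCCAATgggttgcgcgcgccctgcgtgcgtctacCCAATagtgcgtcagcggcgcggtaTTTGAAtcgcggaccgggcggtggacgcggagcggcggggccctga
Cdc20 (chr4:118437294-118437593, minus strand): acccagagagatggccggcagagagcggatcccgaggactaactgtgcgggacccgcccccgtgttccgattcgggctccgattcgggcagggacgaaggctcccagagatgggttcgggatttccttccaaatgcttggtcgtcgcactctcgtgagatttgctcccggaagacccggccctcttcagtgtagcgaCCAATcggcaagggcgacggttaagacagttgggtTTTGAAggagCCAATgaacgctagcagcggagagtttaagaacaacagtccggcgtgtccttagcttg
Cenpe (chr3:135212313-135212612, plus strand): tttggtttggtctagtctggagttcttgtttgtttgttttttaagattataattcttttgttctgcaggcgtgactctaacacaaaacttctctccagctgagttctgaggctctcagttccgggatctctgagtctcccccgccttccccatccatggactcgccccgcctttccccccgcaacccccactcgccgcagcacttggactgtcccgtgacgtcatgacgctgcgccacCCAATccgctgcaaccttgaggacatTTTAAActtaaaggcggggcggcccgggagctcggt
Mcm7 (chr5:138171834-138172133, minus strand): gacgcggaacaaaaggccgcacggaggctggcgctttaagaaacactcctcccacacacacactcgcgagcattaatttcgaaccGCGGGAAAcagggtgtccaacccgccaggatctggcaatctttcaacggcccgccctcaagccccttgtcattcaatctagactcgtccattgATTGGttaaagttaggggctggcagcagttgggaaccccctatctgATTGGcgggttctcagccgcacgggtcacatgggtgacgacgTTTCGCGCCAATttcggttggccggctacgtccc
Ccne1 (chr7:38107441-38107740, minus strand): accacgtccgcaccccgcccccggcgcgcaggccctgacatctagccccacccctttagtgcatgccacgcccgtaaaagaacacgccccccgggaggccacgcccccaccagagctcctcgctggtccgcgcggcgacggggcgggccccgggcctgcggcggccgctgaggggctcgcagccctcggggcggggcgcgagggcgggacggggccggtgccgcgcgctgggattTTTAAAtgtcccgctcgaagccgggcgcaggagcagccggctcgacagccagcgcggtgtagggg

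Counted from the start of transcription, the CHR letters began at position -18 in *Cdc20*, 5 in *Ccnb2*, with a second match at -167, and 15 in *Cenpe*. *Ccnb2* held 3 CCAAT matches upstream, at -87, -54 and -21. The *Mcm7* window held E2F letters at -165 on the opposite strand and at 17, the latter sharing a base with a CCAAT match. *Ccne1* held 1 TTTAAA at -15 and no match to CCAAT or to the E2F letters searched.

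The first question was whether the mutant clone differed from WT mTECs in its cell cycle genes. Averaged over before and after adhesion, most mitotic genes had lower and most replication genes higher levels in E6, by small amounts, and few passed the test. Differentially expressed (DE) genes had a Benjamini-Hochberg FDR under 0.05 in edgeR's quasi-likelihood test over all tested genes and a fold change (FC) of at least 1.5. By this rule 2 members rose, *Ccnd3* and *Ccne1* (3.85% of the 52, against 5.22% of all tested genes), and 4 fell, *Cenpe*, *Cdkn1b*, *Nusap1* and *Ccna2* (7.69%, against 6.13%). Without the FC limit 15 members passed, 6 higher (11.5%, against 10.3%) and 9 lower (17.3%, against 10.7%). The median log2 FC over the members was -0.10, against -0.013 over all tested genes, and -0.064, against 0.015, without replicate 1 of WT after adhesion. By role, the median was 0.19 and 0.13 in the replication group, 0.25 and 0.28 in the transcription factors, -0.21 and -0.16 in the mitotic kinases and -0.29 and -0.14 in the kinetochore group, the second value of each pair being that without this library. In the replication group 12 of 13 members had a positive sign, and in the 18 members of the 2 mitotic groups 17 had a negative sign, the same counts as without it.

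The values of E6 and WT did not overlap for 13 members that were higher in all 4 E6 libraries (25%, against 15.7% of all tested genes) and 14 that were lower in all 4 (26.9%, against 15.5%). Without replicate 1 of WT after adhesion, 17 were higher (32.7%, against 22.7%) and 18 lower (34.6%, against 24.1%). In the fit without that library 3 members were DE (13.2% of all genes tested there), *Ccnd3*, *Ccne1* and *Cdc20*. With no FC limit, a setting chosen after seeing the data, 19 members were higher (36.5%, against 28.0%) and 21 lower (40.4%, against 25.9%). These were 10 of the 13 replication genes and all 4 transcription factors among the higher ones, and 5 of 8 mitotic kinase and checkpoint genes and 6 of 10 kinetochore genes among the lower ones, with 1 replication gene, *Cdt1*, also lower. The count of 6 DE members fell to 1, *Ccne1*, when any library of WT before adhesion or of E6 was left out, to 3 without replicate 1 of WT after adhesion, and was 7 without replicate 2 of WT after adhesion (21.4% of all genes tested there).

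**Figure D2:**
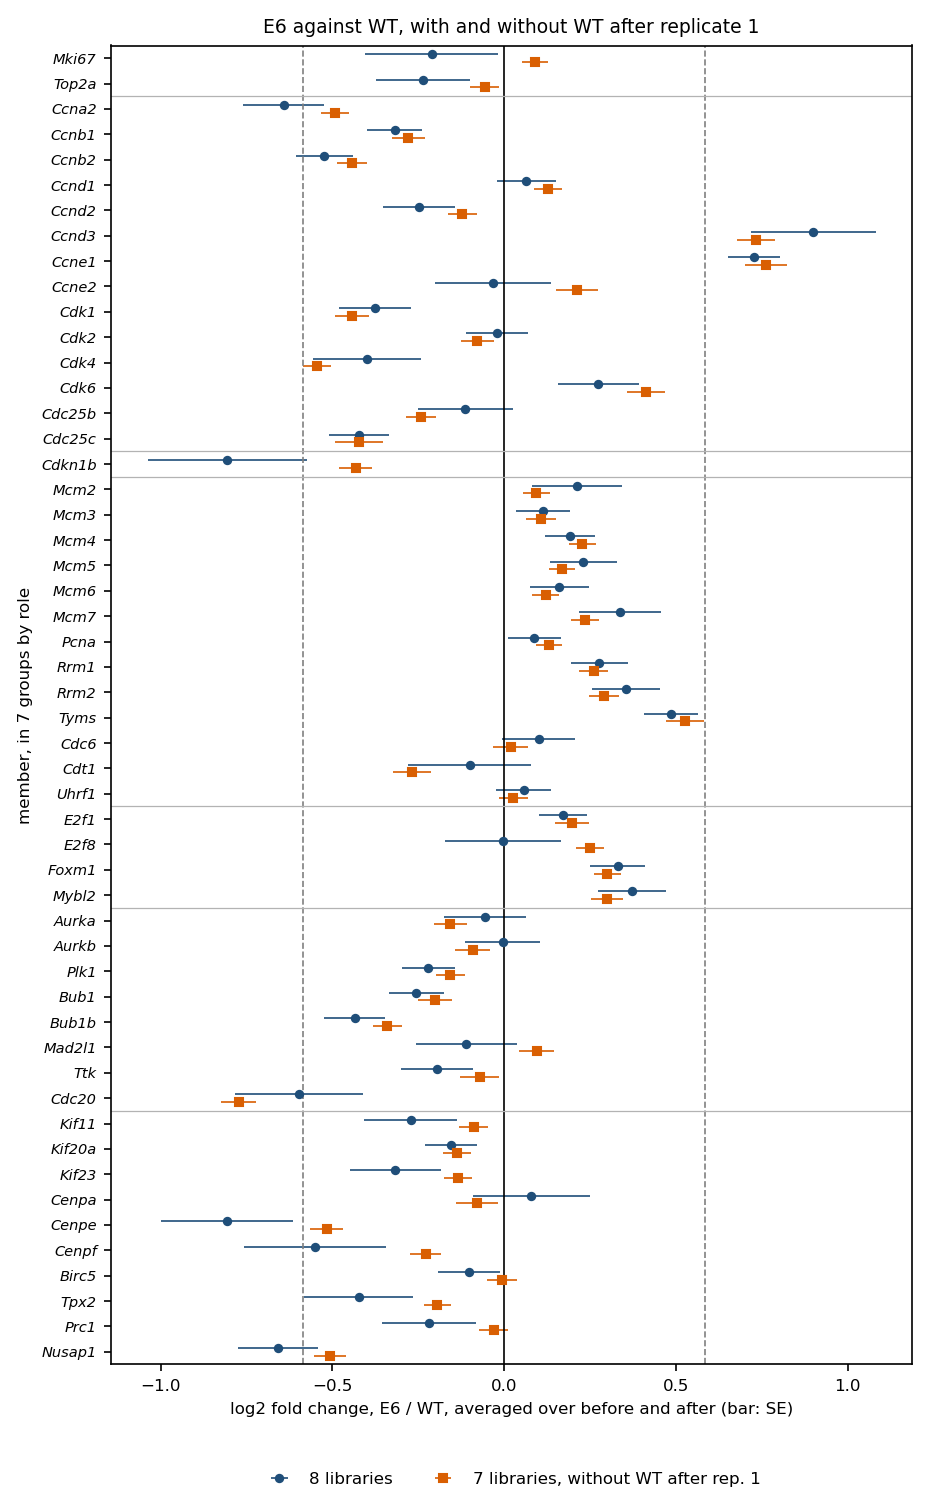
Log2 FC of E6 over WT, averaged over before and after adhesion, for the 52 tested members in 7 groups by role (vertical axis), from the fit of 8 libraries (circles) and without replicate 1 of WT after adhesion (squares). Bars are SE and dashed lines mark an FC of 1.5. The replication genes sit mostly right of 0 and the mitotic genes mostly left, and *Mki67*, *Ccne2*, *E2f8*, *Mad2l1* and *Cenpa* change side between the fits.

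**Figure D3:**
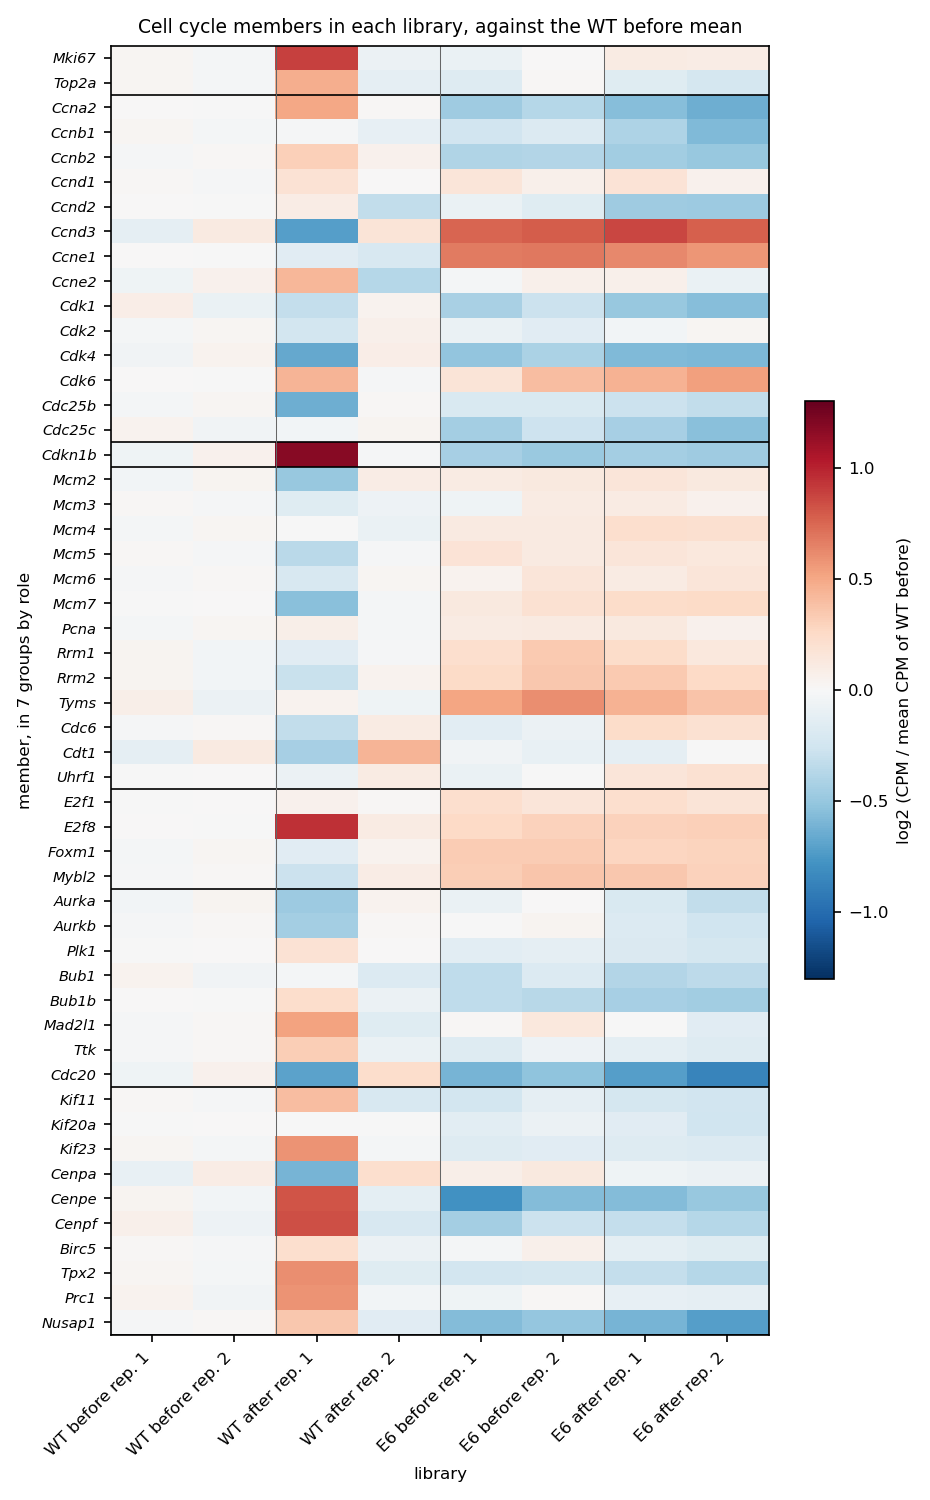
Level of each tested member (vertical axis, 7 groups by role) in each of the 8 libraries (horizontal axis) as log2 of its CPM over the mean CPM of WT before adhesion. The column of replicate 1 of WT after adhesion differs from its partner, while the E6 columns share *Ccnd3* and *Ccne1* above 0 and *Ccna2*, *Cenpe* and *Nusap1* below 0.

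Among the D-type cyclins, which carry growth signals to CDK4 and CDK6, *Ccnd3* (chr17:47505051-47599691, plus strand) had 66.4 and 78.2 CPM in WT before adhesion, 43.8 and 80.7 CPM in WT after adhesion, 122 and 124 CPM in E6 before adhesion and 132 and 124 CPM in E6 after adhesion. All 4 E6 libraries were above all 4 WT libraries. The log2 FC of E6 over WT was 0.90 (SE 0.18, FDR = 0.0144), and 0.73 (SE 0.056, FDR = 3.77e-10) without replicate 1 of WT after adhesion, both from edgeR's quasi-likelihood fit with p-values adjusted by Benjamini-Hochberg, as is every FDR that follows. *Ccnd1* had 664 and 648 CPM before and 749 and 658 CPM after adhesion in WT, against 729.7 and 685 CPM before and 744 and 684 CPM after adhesion in E6, ranges that overlapped, with a log2 FC of 0.065 (SE 0.086, FDR = 0.639), or 0.13 (SE 0.041, FDR = 0.0118) without that library. *Ccnd2* had 228 and 225 CPM before and 242 and 182 CPM after adhesion in WT, against 213 and 203 CPM before and 164 and 164 CPM after adhesion in E6. It was lowest in E6 after adhesion, and its log2 FC of -0.25 (SE 0.10, FDR = 0.137) did not pass and was -0.12 (SE 0.043, FDR = 0.0196) without the same library. Per kilobase of exon, *Ccnd1* made up 80.7 to 83.8% of the D-cyclin level in WT and 80.3 to 83.0% in E6. The share of *Ccnd3* was 2.63 to 5.47% in WT and 7.25 to 7.98% in E6.

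The partner kinase *Cdk4* had 380.5 and 407 CPM in WT before adhesion, 249 and 418 CPM in WT after adhesion, 276 and 297 CPM in E6 before adhesion and 265 and 262 CPM in E6 after adhesion. Replicate 1 of WT after adhesion lay below all E6 libraries and the other 3 WT libraries lay above them. Its log2 FC was -0.40 (SE 0.16, FDR = 0.115) with all libraries and -0.55 (SE 0.041, FDR = 2.9e-10) without that library. *Cdk6* had 102 and 102 CPM before and 139 and 101 CPM after adhesion in WT, against 114 and 135 CPM before and 139 and 148 CPM after adhesion in E6, with a log2 FC of 0.27 (SE 0.12, FDR = 0.145) that became 0.41 (SE 0.055, FDR = 1.53e-06) without the same library. Per kilobase of exon *Cdk6* made up 5.32 to 5.89% of the sum of both kinases in the other 3 WT libraries, 11.5% in replicate 1 of WT after adhesion and 8.76 to 11.6% in E6. The chromosomes of these genes also differed as a whole between the cell types: the median log2 FC was -0.37 over 461 tested genes of chromosome 10, which holds *Cdk4*, *Cdk1* and *Cdk2*, and 0.33 over 640 genes of chromosome 5, which holds *Cdk6*, *Tyms*, *Mcm7* and *Cenpa*. The part of this in the members' values was not tested.

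Of the CDK inhibitors, *Cdkn1b* (chr6:134920401-134925513, plus strand), which encodes p27 and holds CDK2 in check, had 126 and 136 CPM in WT before adhesion, 296 and 129 CPM in WT after adhesion, 96.8 and 93.7 CPM in E6 before adhesion and 96.0 and 94.9 CPM in E6 after adhesion. Every E6 library was below every WT library, and replicate 1 of WT after adhesion was the highest library. The log2 FC was -0.81 (SE 0.23, FDR = 0.0464), and -0.43 (SE 0.047, FDR = 1.03e-07) without that library, where the FC fell under the limit of 1.5. *Cdkn2a* (chr4:89274471-89294653, minus strand) and *Cdkn2b* (chr4:89306299-89311039, minus strand), neighbours that encode the inhibitors p16, p19ARF and p15, had 0 counts in all 8 libraries, which allows up to 0.145 to 0.221 CPM per library (3 counts). Nearby on chromosome 4, *Mtap* had 1 count over all libraries, *Dmrta1* had 0 and *Klhl9* had 805 to 1294 counts per library. These 3 neighbours were chosen after values of the locus were seen.

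Cyclin E drives entry into S phase with CDK2. *Ccne1* (chr7:38097984-38107534, minus strand) had 32.7 and 32.3 CPM in WT before adhesion, 29.4 and 28.1 CPM in WT after adhesion, 52.0 and 52.3 CPM in E6 before adhesion and 50.0 and 48.4 CPM in E6 after adhesion. The 4 E6 values lay above the 4 WT values with little spread in either, and the log2 FC was 0.73 (SE 0.076, FDR = 0.00135), an FC of 1.66. It passed under all 17 alternatives tried, with FDR from 1.5e-11 to 0.018, and was 0.76 (SE 0.061, FDR = 8.68e-10) without replicate 1 of WT after adhesion. *Ccne2*, the other E-type cyclin, had 53.5 and 58.1 CPM before and 75.2 and 43.0 CPM after adhesion in WT, against 54.9 and 58.3 CPM before and 58.4 and 52.6 CPM after adhesion in E6, and its log2 FC of -0.033 (SE 0.17, FDR = 0.921) became 0.21 (SE 0.060, FDR = 0.00483) without that library. Per kilobase of exon, *Ccne1* made up 34.0 to 46.1% of the E-cyclin level in WT and 52.9 to 55.4% in E6. *Cdk2* stayed within 79.8 to 98.6 CPM in the 8 libraries, with a log2 FC of -0.022 (SE 0.090, FDR = 0.899), or -0.078 without that library.

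**Figure D4:**
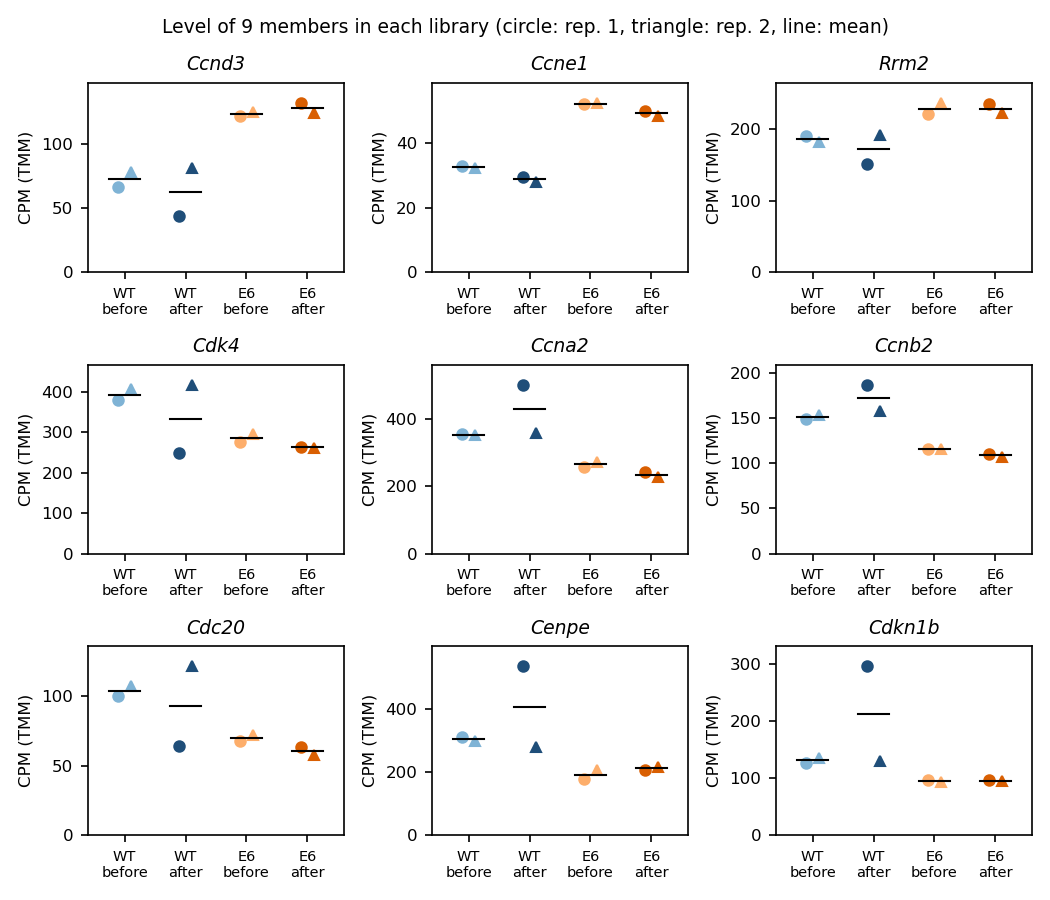
Level in CPM (vertical axis, from 0) of 9 members in the 4 conditions (horizontal axis), with replicate 1 as a circle, replicate 2 as a triangle and a line at their mean. *Ccnd3* and *Ccne1* lie higher in all E6 libraries and *Ccna2*, *Ccnb2*, *Cenpe* and *Cdkn1b* lower, while *Cdk4* and *Cdc20* overlap through replicate 1 of WT after adhesion.

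Of the 13 replication genes, 12 had higher fitted levels in E6, and *Tyms* and *Rrm2* had an FDR under 0.05, all with FCs under 1.5. *Tyms*, thymidylate synthase, had 68.0 and 61.5 CPM in WT before adhesion, 66.9 and 62.2 CPM in WT after adhesion, 92.0 and 98.3 CPM in E6 before adhesion and 88.4 and 83.7 CPM in E6 after adhesion, with no overlap between the cell types and a log2 FC of 0.48 (SE 0.079, FDR = 0.00693), or 0.53 without replicate 1 of WT after adhesion. Of the ribonucleotide reductase subunits, *Rrm2* had 190.0 and 182 CPM before and 152 and 192 CPM after adhesion in WT, against 221 and 236 CPM before and 236 and 222 CPM after adhesion in E6, with a log2 FC of 0.36 (SE 0.10, FDR = 0.0412), and *Rrm1* had a log2 FC of 0.28 (SE 0.083, FDR = 0.0534). Both were higher in all 4 E6 libraries, and without that library the values were 0.29 and 0.26. In the MCM helicase, *Mcm2* had 342 and 359.6 CPM in WT before adhesion, 249 and 376 CPM in WT after adhesion, 377 and 382 CPM in E6 before adhesion and 391 and 383 CPM in E6 after adhesion, with a log2 FC of 0.21 (SE 0.13, FDR = 0.295) and 0.094 (SE 0.038, FDR = 0.0438) without replicate 1 of WT after adhesion. The other MCM subunits had log2 FCs of 0.11 (*Mcm3*), 0.19 (*Mcm4*), 0.23 (*Mcm5*), 0.16 (*Mcm6*) and 0.34 (*Mcm7*), and for all but *Mcm3* the E6 and WT libraries did not overlap. These 5 values became 0.11, 0.23, 0.17, 0.12 and 0.24 without replicate 1 of WT after adhesion. Summed per kilobase of exon, *Mcm2* to *Mcm7* reached 501 to 508 CPM per kb in WT, 423 in its replicate 1 after adhesion and 543 to 566 in E6. *Pcna*, the sliding clamp, had 408 and 423 CPM before and 439 and 408 CPM after adhesion in WT, against 447 and 449 CPM before and 454 and 433 CPM after adhesion in E6 and a log2 FC of 0.088 (SE 0.076, FDR = 0.456), or 0.13 (SE 0.038, FDR = 0.00622) without the same library. Of the licensing factors, *Cdc6* had a log2 FC of 0.10 (SE 0.11, FDR = 0.541) and *Cdt1* of -0.10 (SE 0.18, FDR = 0.734), which became 0.019 (SE 0.052, FDR = 0.787) and -0.27 (SE 0.055, FDR = 0.000313) without replicate 1 of WT after adhesion. *Uhrf1*, which recruits maintenance DNA methylation, had a log2 FC of 0.057 (SE 0.081, FDR = 0.663), or 0.027 without it. None of the 13 genes was DE by the rule with the FC limit.

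Of the 4 transcription factors, *Foxm1* and *Mybl2*, the factors of G2/M, had an FDR under 0.05 with FCs under 1.5. *Foxm1* had 311 and 322 CPM in WT before adhesion, 286 and 326 CPM in WT after adhesion, 397 and 398 CPM in E6 before adhesion and 384 and 387 CPM in E6 after adhesion, with a log2 FC of 0.33 (SE 0.080, FDR = 0.0268), and *Mybl2* had a log2 FC of 0.37 (SE 0.10, FDR = 0.036). These were 0.30 and 0.30 without replicate 1 of WT after adhesion. *E2f1* had 73.2 and 74.2 CPM before and 76.7 and 74.2 CPM after adhesion in WT, against 85.6 and 82.0 CPM before and 85.6 and 82.7 CPM after adhesion in E6. All 4 E6 libraries were above all 4 WT libraries for *E2f1*, by 82.0 to 85.6 against 73.2 to 76.7 CPM, and its log2 FC was 0.17 (SE 0.070, FDR = 0.128), or 0.20 (SE 0.050, FDR = 0.00198) without that library. *E2f8*, an atypical E2F that represses, had 190.0 and 188 CPM before and 365 and 204 CPM after adhesion in WT, against 226 and 233 CPM before and 233 and 234 CPM after adhesion in E6, so that its direction rested on replicate 1 of WT after adhesion, with -0.0042 (SE 0.17, FDR = 1) as the log2 FC when it was kept and 0.25 (SE 0.041, FDR = 2.54e-05) when it was left out.

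Of the cyclins of S to M phase, *Ccna2* fell in E6, and *Ccnb1* and *Ccnb2* had an FDR under 0.05 with FCs under 1.5. *Ccna2* (chr3:36564865-36572150, minus strand) had 354 and 351 CPM in WT before adhesion, 500.5 and 356 CPM in WT after adhesion, 257 and 273 CPM in E6 before adhesion and 241 and 228 CPM in E6 after adhesion. The E6 libraries lay below all WT libraries, the log2 FC was -0.64 (SE 0.12, FDR = 0.0101), and it was -0.49 (SE 0.041, FDR = 1.24e-09) without replicate 1 of WT after adhesion, under the FC limit. *Ccnb2* (chr9:70407692-70421547, minus strand) had 149 and 153 CPM before and 187 and 158 CPM after adhesion in WT, against 116 and 116 CPM before and 111 and 107 CPM after adhesion in E6, and *Ccnb1* had 178 and 170.3 CPM before and 172 and 162 CPM after adhesion in WT, against 146 and 154 CPM before and 131 and 117 CPM after adhesion in E6. Neither overlapped, with log2 FCs of -0.52 (SE 0.083, FDR = 0.0064) for *Ccnb2* and -0.32 (SE 0.080, FDR = 0.0296) for *Ccnb1*, or -0.44 and -0.28 without the same library. Their kinase *Cdk1* had 219 and 195 CPM in WT before adhesion, 167 and 214 CPM in WT after adhesion, 155 and 170.2 CPM in E6 before adhesion and 147 and 141 CPM in E6 after adhesion, so that 1 WT library lay among those of E6, and the fitted log2 FC was -0.38 (SE 0.10, FDR = 0.0415), or -0.44 (SE 0.049, FDR = 1.2e-07) without that library. Of the phosphatases that activate it, *Cdc25c* had a log2 FC of -0.42 (SE 0.088, FDR = 0.0164), or -0.42 without that library. *Cdc25b* had a log2 FC of -0.11 (SE 0.14, FDR = 0.609) with all libraries, where replicate 1 of WT after adhesion was lowest at 115 CPM. Without that library it was -0.24 (SE 0.043, FDR = 6.85e-05), with all E6 libraries below the other 3 of WT.

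In the group of mitotic kinases, checkpoint genes and the APC/C, all 8 signs were negative. *Cdc20* (chr4:118432901-118437352, minus strand), the activator of the anaphase-promoting complex, had 100.1 and 108 CPM in WT before adhesion, 64.0 and 122 CPM in WT after adhesion, 68.0 and 72.1 CPM in E6 before adhesion and 63.1 and 57.3 CPM in E6 after adhesion. Its E6 libraries were below 3 of the WT libraries and overlapped the fourth, replicate 1 after adhesion, at 64.0 CPM. The log2 FC was -0.60 (SE 0.19, FDR = 0.0604) with all libraries and -0.77 (SE 0.052, FDR = 5.47e-11) without that one. The checkpoint kinase *Bub1b* had 226 and 222 CPM before and 262 and 212 CPM after adhesion in WT, against 178 and 175 CPM before and 166 and 163 CPM after adhesion in E6, with no overlap and a log2 FC of -0.44 (SE 0.090, FDR = 0.0159), or -0.34 without the same library. Lower in all 4 E6 libraries were also *Bub1*, with a log2 FC of -0.26 (SE 0.080, FDR = 0.0615), and *Plk1*, a polo kinase of centrosome and spindle, with -0.22 (SE 0.078, FDR = 0.0888), and without that library the values were -0.20 and -0.16. *Aurka* (-0.056), *Aurkb* (-0.0035), *Mad2l1* (-0.11) and *Ttk* (-0.20) overlapped between the cell types and did not pass. Leaving out replicate 1 of WT after adhesion put them at -0.16, -0.091, 0.095 and -0.071, so that *Mad2l1* changed sign.

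The kinetochore, spindle and cytokinesis group held 2 of the 4 members that fell. *Cenpe* (chr3:135212537-135273611, plus strand), a kinesin that carries chromosomes to the spindle equator, had 312 and 298 CPM in WT before adhesion, 536 and 278 CPM in WT after adhesion, 177 and 206 CPM in E6 before adhesion and 206 and 217 CPM in E6 after adhesion. E6 and WT did not overlap, and the log2 FC was -0.81 (SE 0.19, FDR = 0.0256), or -0.52 (SE 0.048, FDR = 8.98e-09) without replicate 1 of WT after adhesion. *Nusap1* (chr2:119618298-119651244, plus strand), which binds spindle microtubules, had 161 and 165 CPM before and 208 and 148 CPM after adhesion in WT, against 110.5 and 115 CPM before and 107 and 99.5 CPM after adhesion in E6, with a log2 FC of -0.66 (SE 0.12, FDR = 0.00939) and -0.51 (SE 0.047, FDR = 6.68e-09) without that library. *Ccna2* and *Cenpe* lie on chromosome 3, where the median over 464 tested genes was -0.14. *Cenpf*, *Tpx2*, *Kif23* and *Kif20a* were lower in all 4 E6 libraries without passing, at log2 FCs of -0.55, -0.42, -0.32 and -0.15. These were -0.23, -0.19, -0.14 and -0.14 without replicate 1 of WT after adhesion. The kinesin *Kif11* (-0.27), the cytokinesis protein *Prc1* (-0.22) and the survivin gene *Birc5* (-0.10) overlapped, as did *Cenpa* (0.080), the histone variant of centromeres. Without that library they were at -0.089, -0.031, -0.0066 and -0.078, so that *Cenpa* changed sign.

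The 2 markers of cycling cells did not pass. *Mki67*, which coats mitotic chromosomes, had 875 and 846 CPM in WT before adhesion, 1597 and 814 CPM in WT after adhesion, 813 and 865 CPM in E6 before adhesion and 924 and 922 CPM in E6 after adhesion. Only replicate 1 of WT after adhesion stood out, and the log2 FC of -0.21 (SE 0.19, FDR = 0.484) turned to 0.089 (SE 0.038, FDR = 0.0539) without it. *Top2a*, the topoisomerase of replicating and condensing chromosomes, had 891 and 858 CPM in WT before adhesion, 1211 and 804 CPM in WT after adhesion, 778 and 881 CPM in E6 before adhesion and 786 and 746 CPM in E6 after adhesion, with a log2 FC of -0.24 (SE 0.14, FDR = 0.264) and -0.057 (SE 0.043, FDR = 0.279) without that library. In bulk RNA, fewer cells in a phase and less RNA per cell cannot be told apart, so these levels count neither dividing cells nor phases.

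Outside the 54, 133 other cell cycle genes were tested, and 4 fell in E6 (3.01%, against 6.13% of all tested genes) and 0 rose (against 5.22%) by edgeR's quasi-likelihood test and the same rule. At an unadjusted p under 0.05 in the same test there were 13 with a positive and 33 with a negative sign. DESeq2 called 1 higher and 7 lower. The shares of all tested genes at these 2 settings are not given here. *Rbl2*, the retinoblastoma relative p130 of quiescent cells, had 55.6 and 58.7 CPM in WT before adhesion, 63.4 and 55.5 CPM in WT after adhesion, 33.4 and 36.0 CPM in E6 before adhesion and 37.5 and 33.9 CPM in E6 after adhesion, without overlap, and a log2 FC of -0.73 (SE 0.088, FDR = 0.00243) that was -0.66 (SE 0.061, FDR = 7.84e-09) without replicate 1 of WT after adhesion. The cytokinesis exchange factor *Ect2* had a log2 FC of -0.69 (SE 0.13, FDR = 0.0105), the microtubule protein *Ckap2* of -0.67 (SE 0.12, FDR = 0.00971) and the factor *E2f5* of -0.61 (SE 0.13, FDR = 0.018). Without that library these 3 were at -0.53, -0.52 and -0.50, under the FC limit. By list, the median log2 FC was -0.26 over 33 kinetochore and chromosome genes, with 28 negative signs, and -0.22 over 31 spindle, cytokinesis and APC/C genes, with 26 negative. Both were nearer to 0 without replicate 1 of WT after adhesion, at -0.12, with 22 negative signs, and -0.17, with 22 negative. Over 40 other replication genes the median was 0.025, with 23 positive signs, and over 29 other regulators 0.031, against 0.074, with 28 positive, and 0.077 without it. Of these 133, 16 were higher (12.0%, against 15.7% of all tested genes) and 30 lower (22.6%, against 15.5%) in all 4 E6 libraries.

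Split by condition, before adhesion only *Ccne1* was DE, with a log2 FC of 0.68 (SE 0.11, FDR = 0.0165) (1.92% of members, against 2.45% of all tested genes higher), and no member was lower (against 2.56%). At an unadjusted p under 0.05 there were 13 members, and DESeq2 called 1. The shares of all tested genes at these settings are not given here, so these counts do not show whether members differed more than other genes. Without replicate 1 of WT after adhesion, which enters this contrast through the shared spread, and with no FC limit, 12 members were higher (23.1%, against 22.5%) and 17 lower (32.7%, against 21.2%). With the FC limit 3 were DE without replicate 1 or without replicate 2 of WT after adhesion (12.7% of all genes tested in each), and 0 without any 1 of the other 6 libraries. After adhesion 2 members were higher (3.85%, against 4.85%), *Ccnd3* with 1.03 (SE 0.26, FDR = 0.0471) and *Ccne1* with 0.77 (SE 0.11, FDR = 0.00883). Lower were 3 (5.77%, against 4.06%), *Ccna2* with -0.87 (SE 0.17, FDR = 0.0228), *Nusap1* with -0.78 (SE 0.17, FDR = 0.0304) and *Ccnb2* with -0.66 (SE 0.12, FDR = 0.0192). Without replicate 1 of WT after adhesion and with no FC limit, 17 were higher (32.7%, against 23.8%) and 19 lower (36.5%, against 18.9%). With the FC limit the count after adhesion was 4 without that library (15.6% of all genes), 20 without replicate 2 of WT after adhesion (37.7%), and 0 or 1 without any other. The contrasts before and after adhesion share no libraries but share the estimate of spread. After adhesion the summed thymocyte markers were at 94.8 and 116 CPM in E6, against 13.4 and 17.1 CPM in WT. The part of thymocyte RNA in the contrast after adhesion and in the average was not tested.

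The second question was whether thymocyte adhesion changed the cell cycle genes of mTECs. No member was DE after adhesion in WT (0.0% of all tested genes), in E6 (2.0%), averaged over both (1.89%) or in the difference of the effects (0.0%) by edgeR's quasi-likelihood test. At an unadjusted p under 0.05 there was 1 member in WT, *E2f8*, 1 in E6, *Ccnb1*, 0 in the average and 0 in the difference. DESeq2 called 0 in each. For the unadjusted p and DESeq2, the shares of all tested genes are not given here. The median SE of a member's log2 FC was 0.15 in WT and in E6. Leaving out replicate 2 of WT after adhesion, so that replicate 1 alone stood for that condition, gave 11 DE members in WT (29.8% of all genes tested there), 1 in the average (11.2%) and 12 in the difference (25.6%).

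In WT the largest log2 FCs after adhesion were 0.70 (SE 0.33, FDR = 0.62) for *Cdkn1b*, 0.59 (SE 0.24, FDR = 0.62) for *E2f8* and 0.49 (SE 0.27, FDR = 0.62) for *Mki67*. Each of the 3 had a replicate 1 after adhesion far above replicate 2, and without replicate 1 the values were -0.021, 0.11 and -0.086. Over all members the median was -0.0021 in WT and -0.053 in E6, against 0.020 and -0.024 over all tested genes, and -0.017 and -0.027 without replicate 1 of WT after adhesion. In E6 the largest were -0.34 (SE 0.15, FDR = 0.722) for *Ccnd2*, 0.33 (SE 0.15, FDR = 0.793) for *Cdc6* and -0.28 (SE 0.11, FDR = 0.674) for *Ccnb1*. *Cdc6* went from 58.0 and 60.7 to 75.7 and 73.5 CPM in E6. *Ccnd2* went from 213 and 203 to 164 and 164 CPM in E6, and in WT from 228 and 225 to 242 and 182 CPM.

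In WT, 5 members were higher in both libraries after adhesion than in both before (9.62%, against 16.6% of all tested genes) and 3 were lower (5.77%, against 14.5%). Within E6, where replicates were close, 23 members were lower in both libraries after adhesion than in both before (44.2%, against 31.6% of all tested genes) and 8 were higher (15.4%, against 23.6%). The 8 mitotic kinase and checkpoint genes all had a negative sign, with a median of -0.13, and 10 of 13 replication genes had a positive one, with a median of 0.028. Without replicate 1 of WT after adhesion and with no FC limit, 8 members passed in E6 (12.1% of all genes), with the same E6 libraries and a smaller estimate of spread. Higher were *Cdc6* at 0.35 (SE 0.066, FDR = 0.000658), *Uhrf1* at 0.24 (SE 0.052, FDR = 0.00253), *Cdk6* at 0.23 (SE 0.068, FDR = 0.0298) and *Mki67* at 0.16 (SE 0.048, FDR = 0.0266). Lower were *Ccnd2* at -0.32 (SE 0.054, FDR = 0.000256), *Ccnb1* at -0.25 (SE 0.063, FDR = 0.00953), *Aurka* at -0.19 (SE 0.062, FDR = 0.0468) and *Aurkb* at -0.20 (SE 0.065, FDR = 0.043). All 8 had an FC under 1.5. Summed thymocyte markers were higher in the same libraries, at 94.8 and 116 CPM, and the part of thymocyte RNA in these values was not tested.

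**Figure D5:**
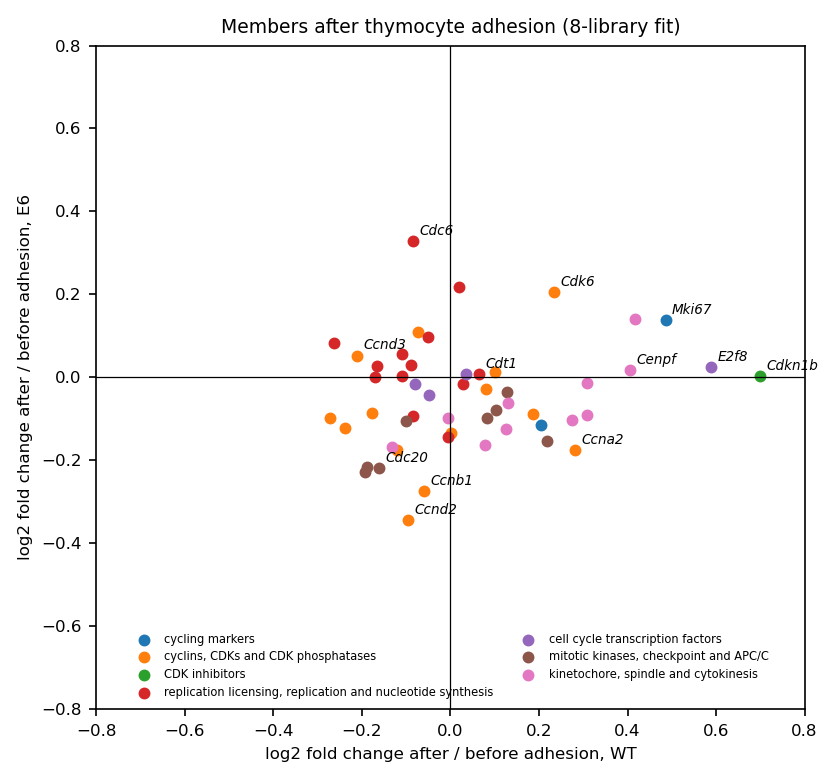
Log2 FC after over before adhesion in WT (horizontal axis) and in E6 (vertical axis) for the 52 tested members, 1 point each, coloured by role, from the fit of 8 libraries. The spread is wider in WT, where *Cdkn1b*, *E2f8* and *Mki67* lie farthest right, than in E6, where no member exceeded 0.33 or went below -0.34.

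Hours of culture differed within 3 of the 4 conditions, and growth time bears on dividing cells. In the fit with culture time as a term no member was DE between 24 h and 12 h (0.0% of all tested genes). In that comparison 1 member had an unadjusted p under 0.05 and DESeq2 called 0, settings whose shares of all tested genes are not given here. The median log2 ratio of the 24 h over the 12 h library was -0.087 over the members in WT after adhesion, with 22 of 52 higher at 24 h, and -0.067 in E6 before adhesion, with 8 higher. In E6 after adhesion it was 0.042, with 42 higher. The direction thus differed between the conditions, each with 1 library per time. In WT after adhesion the 12 h library was replicate 1, the library that stood apart. Its departure and culture time cannot be told apart there.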

How the data were processed

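The authors isolated RNA, made stranded mRNA libraries (the study's methods name a total RNA kit), sequenced both ends of the fragments, used STAR 2.5.0a with mm10 and deposited HTSeq read counts per gene, without normalization. The annotation and the strand setting of the counting are not given in the sources used here, so reads of overlapping or antisense genes may be mixed. The submitters' processing notes also name DESeq2. Rows that name no gene held 21.2 to 33.3% of the alignments and were left out. In replicate 1 of E6 before adhesion, 18 symbols that had become dates were restored from the gene order. Groups followed the samples' titles. For E6 before adhesion the protocol field speaks of co-culture, unlike the title. No label says outright that replicates are separate cultures, so p-values measure only the spread between these libraries. In WT after adhesion and in E6 before and after adhesion the replicates had 12 h and 24 h of culture. The spread there includes that difference. In WT before adhesion both had 12 h, and the spread may be technical.

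Counts were analysed in R 4.3.3 with edgeR 4.0.16: filterByExpr by condition, TMM scaling (factors 0.93767 to 1.0275) and a quasi-likelihood fit of the 4 condition means to 8 libraries. Calls needed an FC of 1.5 or more and an FDR under 0.05. The SE of a log2 FC is its size over the square root of F. Log2 CPM used a prior count of 2. Counts per library were 13506610 to 20145154, where 3 counts are 0.145 to 0.221 CPM (these floors hold for counting error alone, as reads carried no molecular identifiers). Positions and GC content came from GENCODE vM21 on GRCm38, with 388 symbols unmatched. Alternatives were DESeq2 1.42.0, RLE factors, no filter, no FC limit, a replicate block, GC correction (loess, span 0.3), culture time as a term, only the 4 libraries compared, and each library left out. The fit was tested on simulated data with fold changes of 2 and 4. Of the 2-fold changes, 90% were recovered in the average and 64% before adhesion. False calls were 10 of 200 in the average and 12 of 173 before adhesion. Smaller fold changes and a library whose level depends on GC content were not simulated, so the simulation does not cover them. Full values are given for DE members, at most 10 per contrast, and for a fixed list of regulators. From the other cell cycle genes, those DE in the averaged contrast are named. Members, lists and motifs were chosen with earlier results of these data known. Python 3.11.15, pandas 2.3.3 and matplotlib 3.10.9 were used for tables and figures.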

Additional observations from a re-analysis of the deposited data

Results flagged for a closer look

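The share of alignments on no gene, which no comparison of the report uses, was above the level of the libraries before adhesion of the same cell type in 3 libraries after adhesion. It was 15.17% in replicate 1 of WT after adhesion, against 10.33 and 9.86% in WT before adhesion. In E6 after adhesion it was 11.11 and 11.85%, against 10.58 and 9.66% in E6 before adhesion. Replicate 1 of WT after adhesion is the library whose members departed from those of its partner, by up to 1.2 on the log2 scale for *Cdkn1b*. Whether this share moves the members' values was not tested. Conditions of 2 libraries were not tested for an outlying library. No member passed the test of the difference between the adhesion effects.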

How the results depend on the processing

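The member counts above rest on few libraries. Those in this paragraph stand without the shares of all tested genes. They do not show whether members changed more than other genes. With no fold change limit, 2 members passed in E6 against WT before adhesion and 15 in the average. Before adhesion 3 passed with GC correction, 2 with GC correction and the replicate block, and 3 with only the 4 libraries compared, while after adhesion 0 passed with only those 4. Leaving out each library in turn gave 0 to 3 DE members before adhesion, 0 to 20 after adhesion and 1 to 7 in the average, and for adhesion 0 to 11 in WT, 0 to 1 in the average and 0 to 12 in the difference. The left-out library's partner is then assumed to vary like the other groups. Without replicate 1 of WT after adhesion and with no fold change limit, chosen after seeing the data, 29 members passed before, 36 after and 40 in the average, and for adhesion 3 in WT, 8 in E6, 6 in the average and 1 in the difference. The cause was not tested. Replicate numbers did not pair the libraries (correlations of deviations from -0.0794 to 0.2224 over 9768 genes), and the replicate block gave 1, 5 and 5 DE members before, after and in the average. With 1 library left out, the log2 FC of E6 over WT in the average ran from -0.40 to 0.089 for *Mki67*, -0.19 to 0.21 for *Ccne2*, -0.078 to 0.072 for *Cdk2*, -0.24 to 0.083 for *Cdc25b*, -0.27 to 0.16 for *Cdt1*, -0.17 to 0.25 for *E2f8*, -0.16 to 0.098 for *Aurka*, -0.091 to 0.13 for *Aurkb*, -0.25 to 0.095 for *Mad2l1* and -0.078 to 0.33 for *Cenpa*, and that of adhesion in WT from -0.021 to 1.17 for *Cdkn1b* and -0.086 to 0.88 for *Mki67*. Without replicate 1 of WT after adhesion, with or without the fold change limit, the values were 0.089 for *Mki67*, 0.21 for *Ccne2*, 0.25 for *E2f8*, 0.095 for *Mad2l1* and -0.078 for *Cenpa*, and for adhesion in WT -0.021 for *Cdkn1b* and -0.086 for *Mki67*. The sign also turned with GC correction, without and with the replicate block, for *Ccne2* (0.14 in both), *Uhrf1* (-0.013 in both) and *Mad2l1* (0.041 in both), with culture time as a term for *Ccne2* (0.048) and *E2f8* (0.092), with the replicate block alone for *E2f8* (0.011) and *Aurkb* (0.0012), with no filter for *Cdk2* (0.0003), *E2f8* (0.020) and *Aurkb* (0.018), and for *Aurkb* with RLE factors (0.0017) and DESeq2 (0.0015). Among 1168 values of 68 named results under alternatives, 966 kept their direction and their side of the threshold, 110 lost the call, 53 gained it and 39 changed sign. The median SE of a member's log2 FC in the average was 0.105 with all libraries and 0.0446 without replicate 1 of WT after adhesion.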
